A study of Sus scrofa with 12 samples.

Results

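The genes described here are 10 genes of apolipoproteins and lipid transport: APOE, APOD, CLU, ABCA1, ABCG1, LPL, CD36, VLDLR, LRP1 and LRP8. A member was the row of the deposited table that carries its symbol, and where a symbol stood on several rows, the row with the highest mean count over the 12 libraries was taken. This gave 8 of the 10 genes among 29150 rows. CD36 stands on a row named by a bare Ensembl identifier and was found through its description, which makes 9 genes with a row of their own. LRP8 has a row that is joined with the neighbouring gene MAGOH, so no value can be given to LRP8 alone. The genes were chosen by symbol with values of these same libraries already known, the level of APOE in ES3 among them, and each row was selected on its mean count. The group differences given here come from a fit over the whole table and describe the genes, and they are no independent evidence. All 9 genes passed the filter for testing, an average of 0.5 or more in FPKM (a level scaled to row length and library size), as did 20421 rows in all. CD36 passed only through the library ES3, since its mean over the other 11 libraries was 0.290 FPKM.

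The libraries come from 12 gilts (female pigs before a first litter) of a New French Yorkshire breeding population, with RNA from the left ovary of each animal. The 6 ES gilts had gone through 2 estrus cycles in a row and were killed in the third estrus. The 6 NES gilts, for which no estrus was recorded, were full sisters of the ES gilts, and estrus checks began at 165 days of age in both groups. The time of killing of the NES gilts is not given in the sources used here, so cycle stage and group cannot be told apart. The libraries, made from total RNA without ribosomal RNA, had 58140547 to 68961955 counts each. Summed markers of granulosa, theca and oocyte were above 0 in every library.

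Lipoproteins are particles in which apolipoproteins carry cholesterol and triglycerides between cells. Lipoprotein receptors and scavenger receptors take the particles or their lipids up, lipoprotein lipase frees fatty acids from them, and the transporters ABCA1 and ABCG1 move cholesterol out of cells onto apolipoproteins and high-density lipoprotein. In the ovary lipoproteins bring cholesterol to cells that make steroid hormones, and macrophages that clear dead cells also export cholesterol along this route.

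Of the 9 genes, 7 had their highest level of all 12 libraries in the same ovary, ES3: APOE, CLU, ABCA1, ABCG1, LPL, CD36 and LRP1. Over all tested rows ES3 was the highest library in 18.6%. For APOE, CLU and CD36 the ES3 value was at least 3 times the next highest library, which held for 1.59% of all tested rows. CD36 passed the filter for testing only through ES3, so its place in both counts was fixed by that filter. APOD showed the opposite place, with ES3 as its lowest library, as in 18.3% of tested rows. VLDLR was highest in ES4 and second highest in ES3.

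No gene of the 9 passed the test between ES and NES (edgeR's quasi-likelihood test, adjusted p under 0.05 over all tested rows), against 0.945% of rows called in all, 0.152% higher and 0.793% lower in ES. At an unadjusted p under 0.05 there were 5 (APOE, CLU, ABCG1, CD36 and VLDLR), all of them higher in ES, against 16.3% of rows in either direction and 9.50% higher in ES. Of these, CD36 was tested only because of its ES3 value. DESeq2 called 0 of the 6 for which it gave a p, against 5.28% of rows, and limma on log2(FPKM + 0.5) called 0 of 9, against 1.65%. In no gene did the ES and NES libraries separate without overlap, which occurred in 1.98% of tested rows. The log2 difference, ES minus NES, was positive for 8 of 9 genes with all libraries (56.2% of rows) and for 4 of 9 without ES3 (53.5% of rows). Without ES3, 0 of 9 genes were called (0.416% of rows) and 1, APOE, had an unadjusted p under 0.05 (14.7% of rows).

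**Figure D1:**
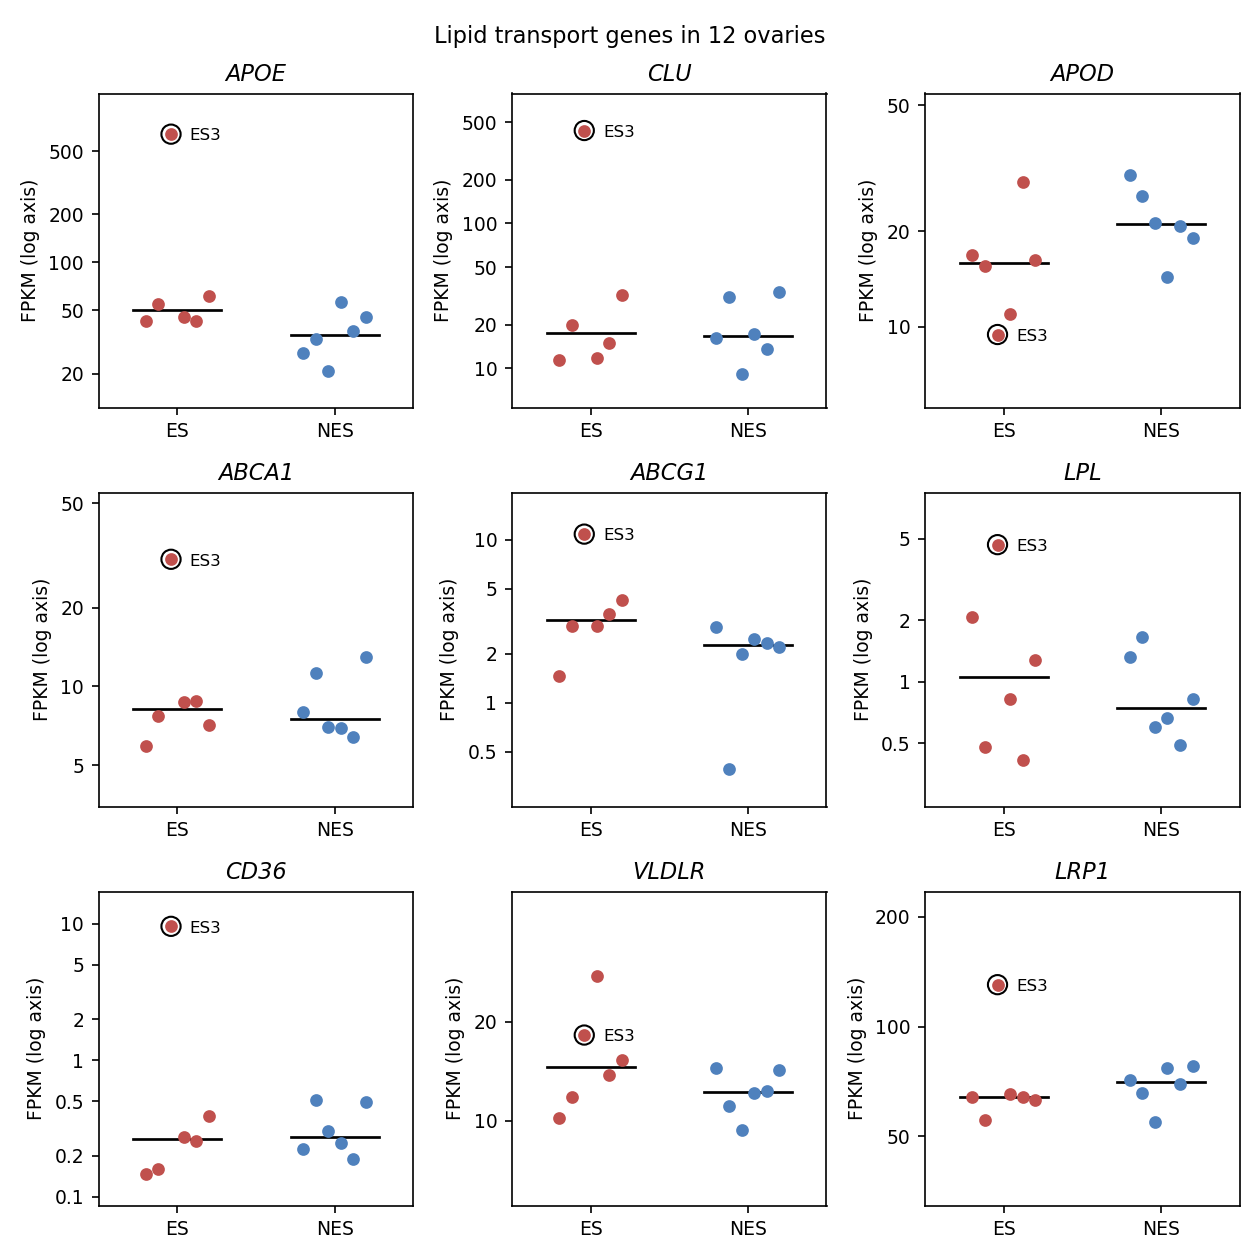
FPKM (log axis, a scale of its own in each panel) of 9 lipid transport genes in the 6 ES ovaries and the 6 NES ovaries, 1 point per library, with the median of each group as a line and ES3 circled. ES3 lies above every other library for 7 genes, from APOE at 638 FPKM to LPL at 4.69 FPKM, and below every other library for APOD.

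In the NES ovaries the order of the levels per length ran from the receptor LRP1 to CD36. LRP1 averaged 69.4 ± 8.39 FPKM, APOE 36.7 ± 12.9 FPKM, APOD 21.9 ± 5.50 FPKM and CLU 20.2 ± 9.86 FPKM (SD, n = 6). VLDLR averaged 12.3 ± 1.93 FPKM, ABCA1 8.78 ± 2.73 FPKM, ABCG1 2.04 ± 0.863 FPKM, LPL 0.924 ± 0.458 FPKM and CD36 0.327 ± 0.141 FPKM. Neighbours in this order overlapped in their range over the 6 libraries in every case except ABCA1 and ABCG1. In ES3 the order was different, with APOE at 638, CLU at 437 and LRP1 at 130.2 FPKM as the highest. Below these lay ABCA1 at 30.6, VLDLR at 18.2, ABCG1 at 10.8, CD36 at 9.56, APOD at 9.46 and LPL at 4.69 FPKM.

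APOE encodes apolipoprotein E, which binds lipoproteins to their receptors and takes up cholesterol exported by cells (MSTRG.18572, Sscrofa11.1, chromosome 6, 51372241 to 51375729, plus strand). In ES ovaries the lowest value was 43.0, the median 50.1 and the highest 638 FPKM, against 20.8, 35.2 and 56.5 FPKM in NES ovaries. ES3 stood 14.8-fold above the median of the other 11 libraries, and the ES libraries after it were ES6 at 61.8 and ES2 at 54.5 FPKM. ES3 and ES6 exceeded every NES library, and the other 4 ES libraries lay within the NES range. By FPKM APOE ranked 12 among the tested rows in ES3 and between 103 and 350 in the other libraries. The log2 difference was 2.08 ± 0.72 (SE; edgeR adjusted p = 0.185). Without ES3 the 5 ES ovaries averaged 49.6 ± 8.26 FPKM (SD, n = 5), and the log2 difference was 0.52 ± 0.23 (edgeR adjusted p = 0.324). On the log2(FPKM + 0.5) scale APOE differed by 1.10, with p = 0.0411 in an exact permutation test (two-sided). The same exact test gave p = 0.0866 to 0.950 for the other 8 genes, and these 9 p-values were not adjusted.

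CLU encodes clusterin, also called apolipoprotein J, a secreted chaperone that binds lipids and cell debris (MSTRG.6884, chromosome 14, 11335595 to 11352462, minus strand). In ES ovaries the lowest value was 11.4, the median 17.5 and the highest 437 FPKM, against 9.12, 16.9 and 33.5 FPKM in NES ovaries. ES3 was the highest, at 26.9-fold the median of the other 11 libraries, and the next were NES6 at 33.5, ES6 at 32.2 and NES2 at 31.2 FPKM. The other 5 ES libraries lay within the range of NES. CLU ranked 19 by FPKM in ES3 and between 193 and 1072 elsewhere. The log2 difference of 2.21 ± 0.93 (SE; edgeR adjusted p = 0.262) turned to -0.074 ± 0.35 without ES3 (adjusted p = 0.955).

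APOD encodes apolipoprotein D, a lipocalin that carries small lipids such as arachidonic acid and progesterone (MSTRG.6203, chromosome 13, 132514026 to 132562505, minus strand). In ES ovaries the lowest value was 9.46, the median 15.8 and the highest 28.7 FPKM, against 14.4, 21.0 and 30.2 FPKM in NES ovaries. ES3 and ES4, at 9.46 and 11.0 FPKM, lay below every NES library, while ES5 was second of the 12 after NES1. Between the groups the log2 difference was -0.34 ± 0.24 (SE; edgeR adjusted p = 0.526), with -0.22 ± 0.22 without ES3 and -0.55 without ES5 (edgeR adjusted p = 0.187). The highest-count rule chose this row, with a mean of 6189 counts, over a stretch of unknown strand with the same symbol (MSTRG.6202, 132513103 to 132513376) and a mean of 25.6 counts.

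ABCA1, which loads cholesterol and phospholipid onto lipid-poor apolipoproteins, lay on MSTRG.1956 (chromosome 1, 246141497 to 246278520, minus strand). In ES ovaries its lowest value was 5.90, the median 8.21 and the highest 30.6 FPKM, against 6.43, 7.50 and 13.0 FPKM in NES ovaries. ES3 was 3.95-fold above the median of the other 11 libraries, followed by NES6 at 13.0 and NES2 at 11.3 FPKM, so that the next highest libraries were both NES. With all libraries the log2 difference was 0.47 ± 0.38 (SE; edgeR adjusted p = 0.567) and turned to -0.11 ± 0.18 without ES3 (adjusted p = 0.847).

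ABCG1, which passes cholesterol to mature high-density lipoprotein, lay on MSTRG.6713 (chromosome 13, 205561927 to 205630797, plus strand). In ES ovaries its lowest value was 1.46, the median 3.23 and the highest 10.8 FPKM, against 0.391, 2.26 and 2.89 FPKM in NES ovaries. Of the 6 ES libraries 5 exceeded every NES library, and the exception was ES1 at 1.46 FPKM. NES2 was the lowest of all 12, at 0.391 FPKM, while the other 5 NES libraries held 1.98 to 2.89 FPKM. The log2 difference was 1.15 ± 0.48 (SE; edgeR adjusted p = 0.262). It was 0.63 ± 0.39 without ES3 (edgeR adjusted p = 0.506) and 0.93 without NES2 (edgeR adjusted p = 0.331).

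LPL encodes lipoprotein lipase, which splits triglycerides of circulating particles (MSTRG.6810, chromosome 14, 4104769 to 4136593, plus strand). In ES ovaries the lowest value was 0.416, the median 1.05 and the highest 4.69 FPKM, against 0.492, 0.741 and 1.65 FPKM in NES ovaries. ES3 and ES1, at 4.69 and 2.07 FPKM, lay above every NES library, and ES5 and ES2, at 0.416 and 0.480 FPKM, lay below every NES library. For LPL the log2 difference was 0.93 ± 0.56 (SE; edgeR adjusted p = 0.433), and 0.28 ± 0.45 without ES3.

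CD36, a membrane protein that takes up fatty acids and oxidised lipoproteins, lay on MSTRG.23939 (chromosome 9, 99683754 to 99782278, minus strand). In ES ovaries its lowest value was 0.146, the median 0.265 and the highest 9.56 FPKM, against 0.188, 0.274 and 0.509 FPKM in NES ovaries. ES3 stood 37.2-fold above the median of the other 11 libraries, the largest such ratio among the 9 genes. The raw counts were 8234 in ES3 and 129 to 420 in the others. After ES3 the highest were NES2 and NES6, at 0.509 and 0.495 FPKM. The log2 difference of 2.53 ± 1.04 (SE; edgeR adjusted p = 0.255) turned to -0.34 ± 0.31 without ES3 (adjusted p = 0.693).

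VLDLR, the very low density lipoprotein receptor, which also binds reelin, lay on MSTRG.1720 (chromosome 1, 219175738 to 219210595, minus strand). In ES ovaries its lowest value was 10.2, the median 14.6 and the highest 27.6 FPKM, against 9.38, 12.2 and 14.5 FPKM in NES ovaries. ES4 was the highest at 27.6 FPKM, then ES3 at 18.2 and ES6 at 15.3 FPKM, and these 3 exceeded every NES library. The log2 difference was 0.48 ± 0.21 (SE; edgeR adjusted p = 0.278), 0.44 ± 0.22 without ES3 and 0.26 without ES4.

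LRP1, a large endocytic receptor for APOE-bearing remnants and protease complexes, lay on MSTRG.16892 (chromosome 5, 22435718 to 22519255, plus strand). In ES ovaries its lowest value was 55.5, the median 64.0 and the highest 130.2 FPKM, against 54.9, 70.6 and 77.8 FPKM in NES ovaries. ES3 was 1.99-fold above the median of the other 11 libraries, which spanned a 1.42-fold range, the narrowest of the 9 genes. LRP1 had a log2 difference of 0.18 ± 0.20 (SE; edgeR adjusted p = 0.703) and turned to -0.063 ± 0.11 without ES3 (adjusted p = 0.860). The highest-count rule chose this row, with a mean of 85162 counts, over an antisense row named LRP1 (MSTRG.16891) with a mean of 30.0 counts.

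LRP8, a receptor for reelin and apolipoprotein E, shared the row MSTRG.20043 (chromosome 6, 158798205 to 159001285, plus strand) with MAGOH, a subunit of the exon junction complex. That row held 57.0 FPKM in ES6, 36.0 in ES1 and 0.950 to 13.8 in the other 4 ES ovaries, against 1.60 to 9.40 FPKM in NES ovaries. ES3 was among its low libraries, at 1.60 FPKM. The stretch of this row also overlaps the annotated genes DMRTB1 and LOC100515900. Which of these genes the reads came from was not tested.

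Rows that overlap a member on either strand held few reads. The row joined with NECTIN2 on the strand opposite to APOE had 87 counts in ES3 and 5 to 18 elsewhere, against 91019 for APOE in ES3. The antisense row at LRP1 had 19 to 44 counts in every library. The strand setting of the counting is not given in the sources used here.

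**Figure D2:**
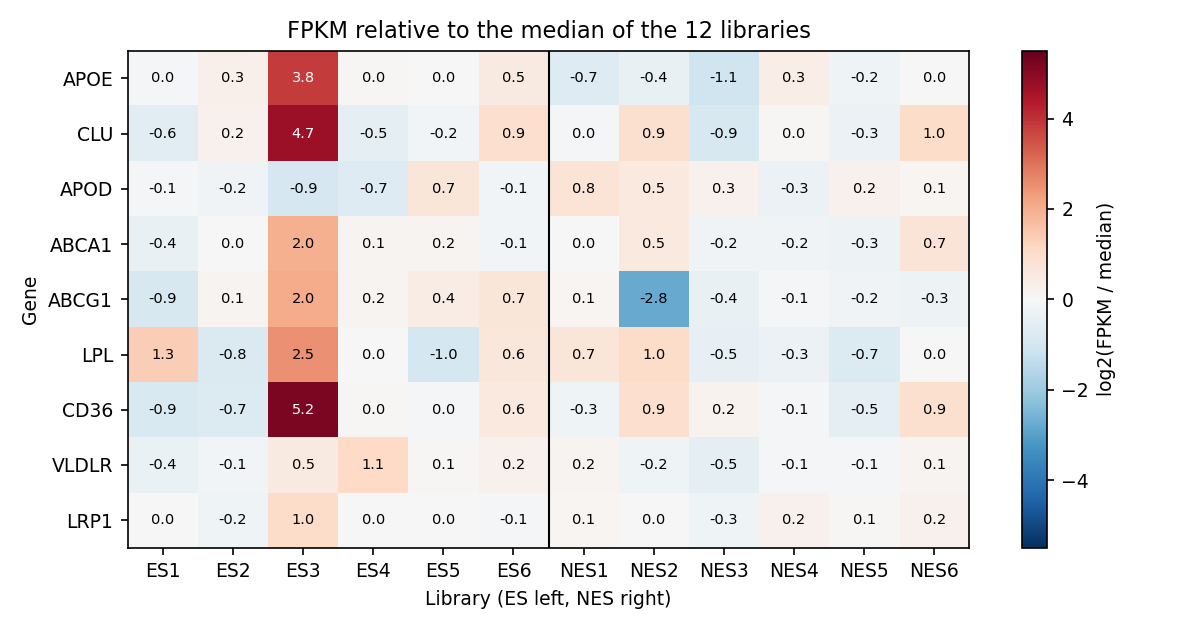
Log2 ratio of FPKM to the median of the 12 libraries for 9 lipid transport genes (rows), with the 6 ES ovaries on the left and the 6 NES ovaries on the right. ES3 shows the highest ratios in CD36, CLU and APOE, at 638 FPKM for APOE, and outside ES3 the strongest departure is ABCG1 in NES2, at 0.391 FPKM.

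**Figure D3:**
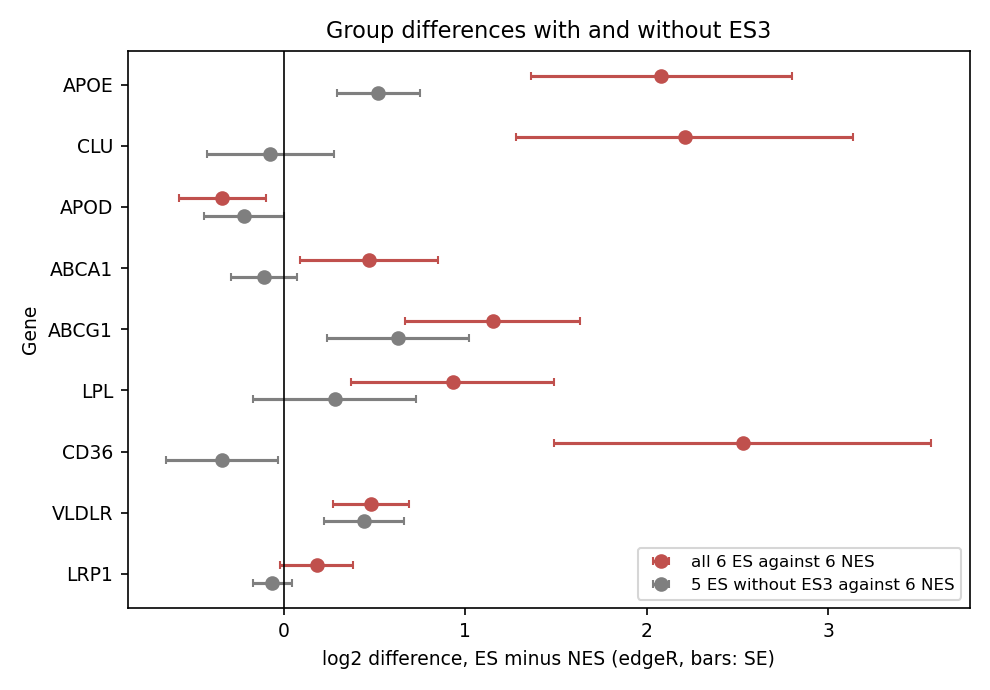
Log2 difference, ES minus NES, from edgeR for 9 lipid transport genes with all 12 libraries (red) and without ES3 (grey), bars showing the SE. CD36 stood at 2.53 with ES3 and -0.34 without it, whereas VLDLR stood at 0.48 and 0.44.

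Cell type markers were set beside these values, because a whole ovary mixes many cells and a bulk value cannot tell fewer cells of a type from less RNA per cell. The macrophage and monocyte list had 13 of 14 genes with a row of their own, and CD68 only in a joined row. Its summed level was 458 FPKM in ES3, with 19.7 to 30.1 FPKM in the other ES ovaries, against 14.6 to 37.8 FPKM in NES ovaries. All 11 tested macrophage markers were highest in ES3. Of these MSR1 passed the filter for testing only through ES3, with 4.00 FPKM there and at most 0.304 FPKM elsewhere. Its place was therefore fixed by that filter. The lysozyme gene LYZ held 256 FPKM in ES3 and 0.401 to 3.51 FPKM elsewhere, and TYROBP, a signalling adaptor of myeloid cells, 49.9 FPKM in ES3 and 0.998 to 4.98 FPKM elsewhere. The scavenger receptor CD163, a marker of resident macrophages, differed less, with 3.02 FPKM in ES3 and 2.99 FPKM in NES6. No macrophage marker was at 0 in every library, while MARCO was at 0 in 9 of them.

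The ratio of ES3 to the median of the other 11 libraries was 20.3 for the macrophage sum. LYZ made up most of that sum, and without it the list summed to 201 FPKM in ES3 and 13.7 to 34.3 FPKM elsewhere, a ratio of 9.97. Among the 11 tested markers the ratio ranged from 3.73 (CD163) to 173 (LYZ), with a median of 10.4. CLU at 26.9 and CD36 at 37.2 each exceeded 10 of the 11 markers, and APOE at 14.8 exceeded 8. LPL at 5.72 exceeded 2, ABCG1 at 4.39 and ABCA1 at 3.95 exceeded 1, and LRP1 at 1.99 exceeded none. Outside ES3 the macrophage sum was highest in NES2 and NES6, at 37.8 and 37.1 FPKM. The same pair held the highest ABCA1 and CD36 values outside ES3, and NES6, ES6 and NES2 the highest CLU values. Other members followed this order in part or not at all. Among these 11 libraries ABCG1 was lowest in NES2 and 8th in NES6, and APOE was 9th in NES2 and 5th in NES6. LPL was highest in ES1, 2nd in NES2 and 6th in NES6. LRP1 was highest in NES6 and 5th in NES2. APOD was 3rd in NES2 and 6th in NES6, and VLDLR was 9th in NES2 and 4th in NES6. The part of macrophages in these results was not tested.

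Other lists also moved in ES3. The granulosa sum was 45.3 FPKM in ES3, with 217 to 1327 FPKM in the other ES ovaries, against 157 to 633 FPKM in NES ovaries. INHA, FSHR, FOXL2, CYP19A1, INHBB and IHH in ES3 stood at 0.0168-fold to 0.194-fold the median of the other 11 libraries. INHBA, at 31.2 FPKM the largest part of the sum in ES3, stood at 1.11-fold and BMPR1B at 1.13-fold. The theca sum was 48.1 FPKM in ES3, with 59.4 to 367 FPKM in the other ES ovaries, against 149.6 to 257 FPKM in NES ovaries. ACTA2 made up most of it in ES3, at 38.9 FPKM and 0.644-fold the median of the other 11 libraries. ANPEP stood at 2.17-fold, and CYP17A1, INSL3, GLI1, HHIP and PTCH1 at 0.00447-fold to 0.185-fold. The luteal and steroidogenic sum was 204 FPKM in ES3, with 85.4 to 477 FPKM in the other ES ovaries, against 52.0 to 81.7 FPKM in NES ovaries. Its genes were unlike each other in ES3. Relative to the median of the other 11 libraries, the steroid enzyme genes HSD3B1 and CYP11A1 stood at 3.84-fold and 2.60-fold and the prostaglandin receptor gene PTGFR at 3.06-fold. STAR, which carries cholesterol into mitochondria, stood at 0.174-fold and the luteinizing hormone receptor gene LHCGR at 0.143-fold. The stromal fibroblast sum was lowest in ES3, at 625 FPKM, with 644 to 2262 FPKM elsewhere. The collagen genes COL1A1 and COL1A2 made up most of it in ES3, at 322 and 264 FPKM. Relative to the median of the other 11 libraries, PDGFRA, TCF21 and OGN stood at 0.278-fold, 0.373-fold and 0.390-fold in ES3. DCN stood at 0.962-fold and LUM at 5.83-fold. The lymphocyte sum was highest in ES3, at 10.1 FPKM, with 2.33 to 8.05 FPKM elsewhere. Of its genes CD4, IL7R and CCL5 were highest in ES3, at 2.32, 2.50 and 2.54 FPKM. CD3E, CD3D, CD8A, ZAP70 and MS4A1 were highest in ES5. Smooth muscle and endothelial sums in ES3, at 217 and 79.2 FPKM, lay within the range of the other libraries, but their genes differed. PECAM1, TEK, TIE1 and FLT4 were highest in ES3, at 1.45-fold to 2.17-fold the median of the other 11 libraries. EMCN was lowest there, at 0.430-fold, and the other endothelial genes stood at 0.855-fold to 1.71-fold. In the smooth muscle list MYH11 stood at 0.278-fold, DES at 0.246-fold, TAGLN at 1.66-fold and CSPG4 at 2.85-fold, the others at 0.644-fold to 1.25-fold. The adipocyte sum was 5.16 FPKM in ES3 and 1.44 to 3.14 FPKM elsewhere, and the fatty acid binding protein gene FABP4 made up 3.42 FPKM of it in ES3, with 0 to 0.203 FPKM elsewhere. CIDEC and ADIPOQ were also highest in ES3, at 0.466 and 0.0530 FPKM. LIPE, the only tested gene of this list, went the other way. It was lowest in ES3, at 1.08 FPKM, with 1.14 to 2.40 FPKM elsewhere. PLIN4 in ES3 stood at 0.602-fold the median of the other 11 libraries. PLIN1 and LEP were at 0 in ES3 and at most 0.138 FPKM for PLIN1 and 0.0420 FPKM for LEP elsewhere. Their part in the members' values was not tested.

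**Figure D4:**
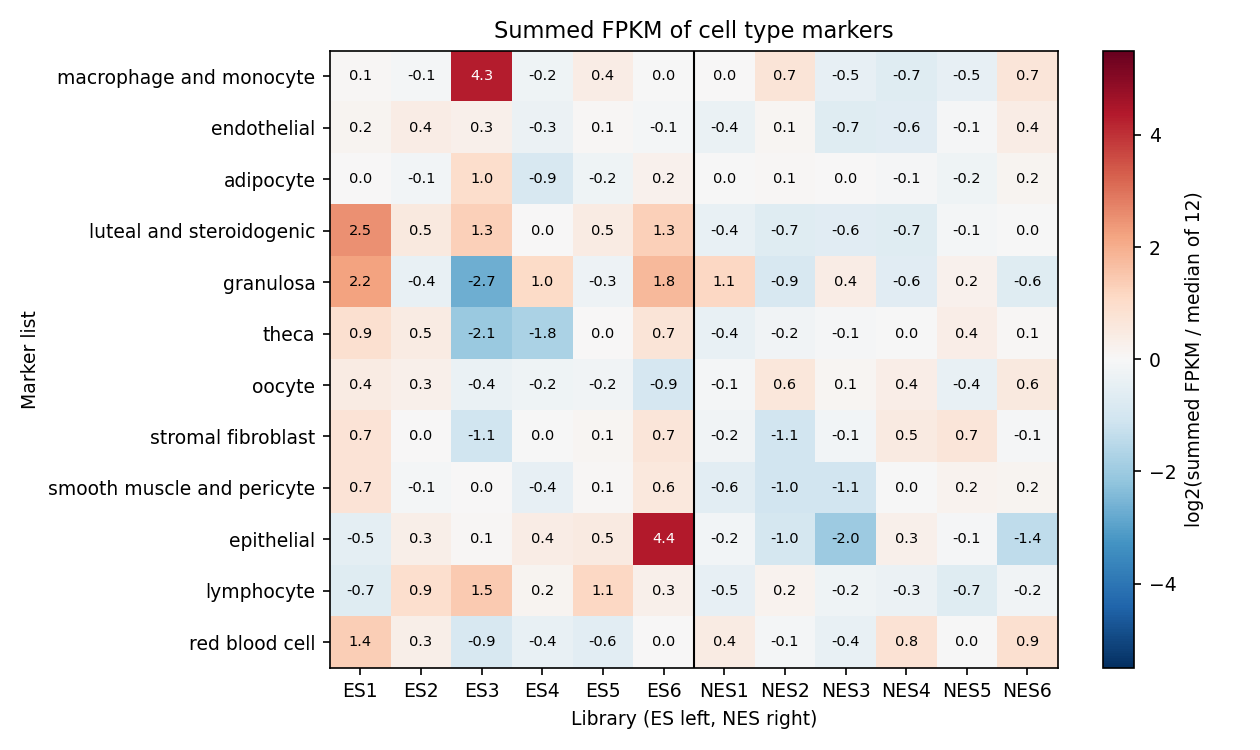
Log2 ratio of the summed FPKM of each cell type marker list to its median over the 12 libraries, with ES on the left and NES on the right. In ES3 the macrophage and monocyte sum is the highest of the 12 and the granulosa, theca and stromal fibroblast sums are the lowest, and ES6 has the highest epithelial sum.

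Genes with the pattern most like APOE and CD36 were sought among 13618 named rows that averaged 1 FPKM or more and had counts in every library. The measure was the root mean square difference of log2 CPM (counts scaled to library size) over 12 libraries, each gene centred on its own mean. CD36 was taken beside APOE because it varied most among the others. The 5 rows nearest to APOE were GAREM2 (0.360), the cysteine protease CTSH (0.365), the actin-capping gene CAPG (0.381), the protease inhibitor CSTB (0.407) and the lysosomal protease CTSD (0.435). CTSD held 237 FPKM in ES3 and 9.56 to 18.4 FPKM elsewhere. Among the 5 nearest to CD36 were NPL (0.347), the lysosomal protease CTSZ (0.415), the acid phosphatase ACP5 (0.431) and GPNMB, a glycoprotein of macrophages and pigment cells (0.473). CTSZ held 103 FPKM in ES3 and 2.94 to 9.13 FPKM elsewhere. Among the other members CLU came closest, at place 9 for CD36 and place 57 for APOE, and APOD was the farthest, at places 12174 and 12493. All 9 neighbours named here had their largest level in ES3 and none passed the test between ES and NES (edgeR adjusted p = 0.194 to 0.360). They were chosen for a profile like that of APOE or CD36, both highest in ES3 and not called. Their place in ES3 follows from that choice and is no separate result.

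The wider pathway was read from 5 lists of 104 genes, of which 61 were tested. Leaving out the members, 52 genes were tested, and 1 passed, PPARG, against 0.945% of all tested rows. Of these 52, 39 had a positive log2 difference, with a median of 0.26, against 56.2% positive and a median of 0.043 over all tested rows. Without ES3, 35 were positive, with a median of 0.17, against 53.5% and 0.021 over all rows. ES3 was the highest library for 18 of the 52 genes (34.6%, against 18.6% of all rows). Among these 18, MSR1 passed the filter only through ES3.

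PPARG, a nuclear receptor for fatty acids that switches on genes of lipid uptake and storage, fell in ES. It held 0.507 to 1.49 FPKM in ES ovaries, with a mean of 0.872 ± 0.368 FPKM, against 1.63 to 4.23 FPKM in NES ovaries, with a mean of 2.48 ± 0.977 FPKM (SD, n = 6 each). All 6 ES libraries lay below every NES library, and 1.98% of all tested rows showed no overlap in either direction. The log2 difference was -1.41 ± 0.30 (SE; edgeR adjusted p = 0.0487). The call held in 8 of 21 alternative fits. Over these 21 edgeR, DESeq2 and limma fits the log2 differences were -1.60 to -0.87, with adjusted p = 4.50e-04 to 0.125. Of the fits that leave out 1 library, the call held only without ES5 and without NES6. It was lost when any other library was left out, ES3 among them (log2 -1.29, adjusted p = 0.0680 with edgeR).

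Of the 20 apolipoprotein genes 7 were tested and 0 passed. APOA1, the main protein of high-density lipoprotein, averaged 17.0 ± 7.19 FPKM in ES ovaries and 11.3 ± 2.09 FPKM in NES ovaries (log2 0.71 ± 0.27, edgeR adjusted p = 0.219). Its highest library was ES1, at 29.5 FPKM. APOB, the structural protein of low-density lipoprotein, held at most 0.0429 FPKM in any library. Of the 23 genes of lipid efflux 14 were tested and 0 passed. ABCB1, a drug and lipid transporter, averaged 6.32 ± 5.50 FPKM in ES ovaries and 2.89 ± 0.669 FPKM in NES ovaries (log2 1.27 ± 0.42, edgeR adjusted p = 0.168). ES1 was also the highest library for ABCB1, at 17.5 FPKM. ABCA3, a phospholipid transporter, averaged 2.00 ± 0.799 FPKM in ES ovaries and 1.43 ± 0.126 FPKM in NES ovaries (log2 0.56 ± 0.22, adjusted p = 0.239).

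Of the 23 lipoprotein receptors and partners 16 were tested and 0 passed. DAB1, the adaptor that relays reelin signals from VLDLR and LRP8, averaged 1.20 ± 0.357 FPKM in ES ovaries and 2.19 ± 0.581 FPKM in NES ovaries (log2 -0.76 ± 0.23, edgeR adjusted p = 0.136). LRP10 averaged 15.5 ± 4.91 FPKM in ES ovaries and 12.2 ± 0.841 FPKM in NES ovaries (log2 0.44 ± 0.16, edgeR adjusted p = 0.221). ES3 was its highest library, at 24.3 FPKM, and without ES3 the log2 difference of LRP10 was 0.26. The ligand RELN, chosen after its values were seen, had a log2 difference of 0.54 ± 0.24 (edgeR adjusted p = 0.280). It was highest in ES3, at 8.00 FPKM, and without ES3 its log2 difference was 0.39.

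Of the 15 genes around lipoprotein lipase 10 were tested and 0 passed. ANGPTL4, a secreted inhibitor of lipoprotein lipase, averaged 27.1 ± 15.2 FPKM in ES ovaries and 14.1 ± 8.68 FPKM in NES ovaries (log2 1.07 ± 0.43, edgeR adjusted p = 0.247). LIPA, the lysosomal lipase that frees cholesterol from esters, averaged 0.976 ± 0.860 FPKM in ES ovaries and 0.534 ± 0.266 FPKM in NES ovaries (log2 0.94 ± 0.46, edgeR adjusted p = 0.337). Without ES3 the log2 difference of LIPA was 0.31. Of the 23 scavenger and fatty acid uptake genes 14 were tested, and PPARG was the 1 that passed.

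The next genes were picked for their high or low level in ES3 and are given as values only. PLTP, which transfers phospholipid between lipoproteins, held 69.1 FPKM in ES3 and at most 17.1 FPKM elsewhere. NPC2, which hands cholesterol out of lysosomes, held 75.6 FPKM in ES3 and at most 31.5 FPKM elsewhere. The fatty acid binding protein FABP5 held 11.7 FPKM in ES3 and at most 2.77 FPKM elsewhere, and the scavenger receptor MSR1 4.00 and at most 0.304 FPKM. By contrast the sorting receptor SORL1 held 1.82 FPKM in ES3 and a median of 10.1 FPKM elsewhere.

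**Figure D5:**
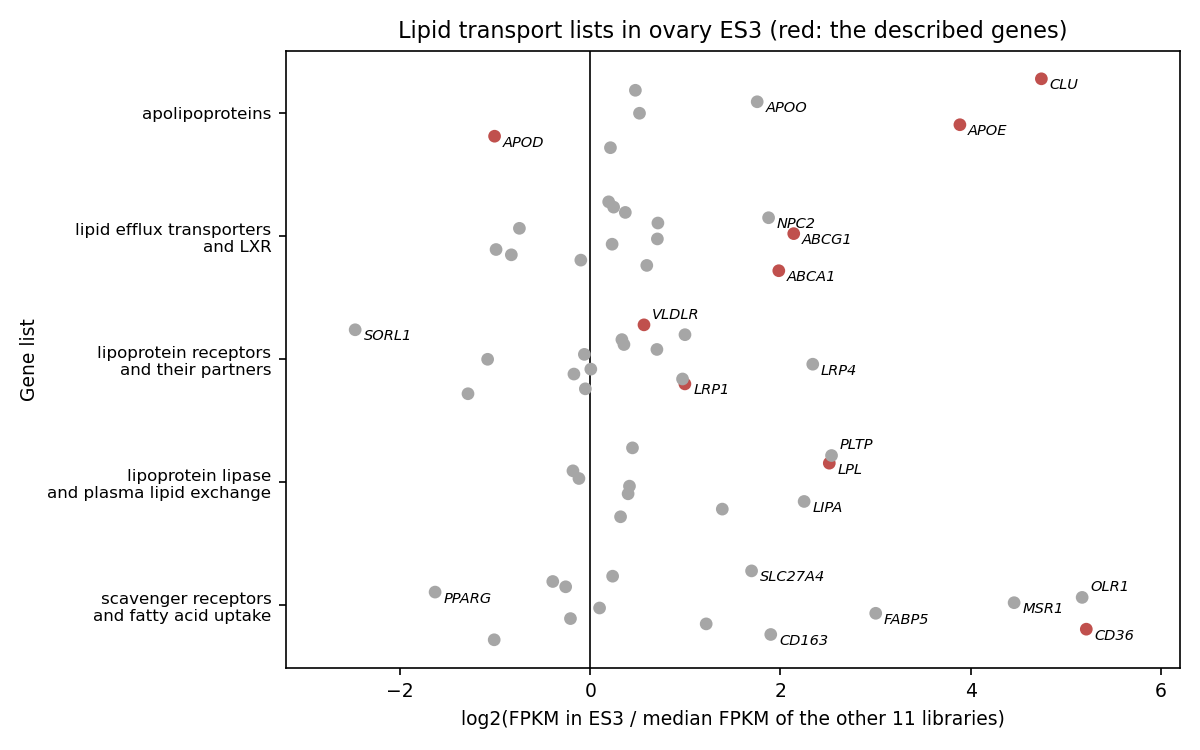
Log2 ratio of FPKM in ES3 to the median of the other 11 libraries for tested genes of 5 lipid transport lists, the members in red with genes far from 0 named. CD36, CLU and APOE lie among the highest ratios together with OLR1 and MSR1, and SORL1 and PPARG lie on the low side.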

How the data were processed

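The authors deposited, per the file headers, counts and FPKM of every library for 29150 rows. The deposited FPKM divide each count by row length and library total, as the values show. Trimming, quality control and alignment (cutadapt, FastQC, HISAT2 and TopHat, build Sscrofa11.1) are credited to the submitters' processing notes. How counts were made, their strand handling and the gene models: not given in the sources used here. Per the labels' protocols, libraries were strand-specific (dUTP) and depleted of ribosomal RNA. Rows without a gene name held 5.57% of the counts and stayed in the fit.

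Groups came from the sample titles, and no 2 libraries held identical counts. Levels are FPKM. Tests used edgeR's quasi-likelihood test on counts with TMM factors (0.891 to 1.08), over 20421 rows averaging 0.5 FPKM or more, with Benjamini-Hochberg adjustment. The SE is the log2 difference over the square root of F. Bare Ensembl identifiers were named from a name table (1036 rows) or the NCBI gene number in the description (585 rows). Joined rows (1369) gave no value to a single gene.

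All 10 members were named, with the called or the 2 lowest-p genes of each list, and the 5 rows nearest to APOE and to the most variable other member. Members and lists were chosen with earlier results of these data known. Some items are not reported here. Other genes are marked as chosen after their values were seen. Each ES gilt had a full sister among the NES gilts, but no label states that equal numbers in the titles mark sisters. For that reason same-numbered libraries were not used as pairs in the reported fit. They correlated at -0.0323 to 0.236 in their deviations from the group means, which does not settle whether they are sisters. Alternatives were other scaling, filters, DESeq2, limma, a replicate block and left-out libraries. The scripts were tested on simulated data. Depth limits precision for counting error only, and p-values measure the spread between gilts. Statistics ran in edgeR 4.0.16, limma 3.58.1 and DESeq2 1.42.0 under R 4.3.3. Tables and figures came from Python 3.11.15 with pandas 2.3.3, numpy 2.4.6, scipy 1.17.1 and matplotlib 3.10.9.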

Additional observations from a re-analysis of the deposited data

Results flagged for a closer look

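In 6 of 18 gene and group combinations, 1 library stood far from the other 5 on the log2 FPKM scale. Chance gives about 1 in 20 in regular data, and over tested rows with values above 0 in all libraries of the group it was 11.0% in the ES group and 6.41% in the NES group. The measure is the gap to the nearest library over the range of the group, judged against Dixon's critical value for 6 samples. The combinations share libraries and are not independent, and the genes were chosen with values in ES3 known, so the count is a description. In the ES group ES3 was the high library for APOE (0.866), LRP1 (0.809), CD36 (0.766), ABCA1 (0.756) and CLU (0.715), and ES3 was so placed in 3.31% of these rows. Of these genes, CD36 passed the filter for testing only through ES3. In the NES group NES2 was the low library for ABCG1 (0.811), as in 0.264% of these rows. Macrophage markers summed to 458 FPKM in ES3 and 37.8 FPKM in NES2, and their part in these values was not tested.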

How the results depend on the processing

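None of the 9 genes passed the test in any edgeR, DESeq2 or limma fit tried. Of 216 alternative values of their log2 differences, 8 reversed in sign, all of them without ES3 or without ES3 and ES6 together. Over the 12 fits that leave out 1 library, CLU ranged from -0.074 to 2.45, ABCA1 from -0.11 to 0.62, CD36 from -0.34 to 2.79 and LRP1 from -0.063 to 0.25, the lowest value in each case without ES3. Without ES3 and ES6 together these 4 stood at -0.37, -0.071, -0.55 and -0.051. APOE ranged from 0.52 to 2.28, and DESeq2 gave no p for APOE, CLU and CD36. The count of rows called over the whole table was 193 in the reported fit, 1055 with DESeq2, 337, 334 and 319 with limma at pseudocounts of 0.5, 0.1 and 1, 28 without a filter and 1 without ES3 and ES6. With 1 library left out it ranged from 0 to 415. With the replicate block it was 0, and the log2 difference of APOE was 0.97. Correlations did not settle whether equal numbers mark sisters. Of the 6 ES libraries 3 were closest to the NES library of their own number: ES1 (0.236), ES2 (0.0987) and ES5 (0.224). The other 3 were closer to an NES library of another number. The causes were not tested. Outside ES3 CD36 had 129 to 420 counts per library, which limits what can be read from its differences there.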

Other observations

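OLR1 and SCARB1, which were chosen after their values were seen, were highest in ES1, while other uptake genes such as MSR1, FABP5 and LRP10 were highest in ES3. The oxidised lipoprotein receptor OLR1 held 362 FPKM in ES1, 24.0 FPKM in ES3 and a mean of 0.685 ± 0.392 FPKM in NES (SD, n = 6). SCARB1, the receptor for high-density lipoprotein, reached 36.0 FPKM in ES1. Neither passed the test between ES and NES (edgeR adjusted p = 0.0943 for OLR1 and 0.274 for SCARB1). ES1 was the lowest library for 2 of the 9 members, ABCA1 and CD36, at 5.90 and 0.146 FPKM, and for 25.9% of all tested rows.

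The low ABCG1 value of NES2 was 3.73-fold under the next lowest library, ES1. NES2 was the lowest library by at least 3-fold in 36 of 20421 tested rows (0.176%).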
